A study of Homo sapiens with 30 samples.

Results

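Apoptosis signal-regulating kinase 1, the product of MAP3K5, and the stress-activated kinase branch below it were followed after bone morphogenetic protein 4 (BMP4). The set held 10 genes: the upstream kinases MAP3K5 and MAP3K7, the intermediate kinases MAP2K3, MAP2K4 and MAP2K6, the terminal kinases MAPK8 and MAPK14, and the 3 GADD45 genes. The arrays measured them with 17 of 41000 probes, and MAP3K5 with 1 probe. Genes were taken by their name in the scanner files. MAP3K5 was chosen by its measured log2 ratios, which were high from 3 h on, so these are given as a description and no test of them is given. Tests were read for the 16 probes of the other 9 genes, and for the level of all 17 probes in cells without BMP4.

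Each of 30 arrays compared BMP4-treated cells, labelled with Cy5, with vehicle-treated cells of the same line and time, labelled with Cy3. The 5 established human breast cancer lines were ZR-75-30, MDA-MB-361, SK-BR-3, HCC1954 and HCC1419. The groups were the 6 times of treatment with 5 arrays each, of which 30 min and 1 h are called early here and the others, 3 h and 6 h as well as 12 h and 24 h, late. All groups received recombinant human BMP4 in the Cy5 channel, and cells of 3 treatments were pooled for each RNA, so the spread between replicate treatments was not measured and the replicate is the cell line. The 6 arrays of a line are cultures of 1 line, and p-values measure the spread between these arrays.

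The dyes were never swapped. A mean ratio tested against 0 therefore holds any dye bias of a probe, whereas a constant bias cancels in a difference between times or lines. Of the probes on an array, 58.9% to 70.6% were well above background in the vehicle channel. On all 30 arrays the nearest vehicle profile was that of another array of the same line. Of the epithelial markers, KRT8, EPCAM, ERBB2 and 3 of 4 KRT18 probes were well above background on all 30 arrays in the vehicle channel, and CDH1 on 24, with none of the 6 SK-BR-3 arrays among them. Of the markers of other cell types reported here, PTPRC was above background on 0 arrays and DCN on 0 in that channel, PECAM1 on 6 (all HCC1954) and COL1A1 on 28. The part of these signals in the results was not tested.

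Stress kinases work in 3 tiers. A MAP3K phosphorylates a MAP2K, which phosphorylates a MAPK. MAP3K5 responds to oxidative and endoplasmic reticulum stress and is held inactive by reduced thioredoxin. MAP3K7, also known as TAK1, is the MAP3K through which BMP and TGF-β receptors reach the p38 and JNK kinases without SMAD proteins. MAP2K3 and MAP2K6 activate p38 (MAPK14), and MAP2K4 activates JNK (MAPK8) and p38. The GADD45 proteins are small stress-inducible proteins that bind the MAP3K MTK1 (MAP3K4) and so feed the same branch. These are transcript levels, and kinase activity is set mainly by phosphorylation, which arrays do not see.

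The sequence before the start of MAP3K5 is shown because the ratios of this gene are described first. The RefSeq promoter table of build GRCh38.p14 has 2 start sites for it, and the 250 bases before each are printed 5′ to 3′ on the strand of the gene, the minus strand, at chr6:136793092-136793341 and chr6:136792478-136792727. Capitals mark GGCGCC, a GC-rich sequence known as a binding element of the SMAD proteins of the BMP branch.
MAP3K5 distal start: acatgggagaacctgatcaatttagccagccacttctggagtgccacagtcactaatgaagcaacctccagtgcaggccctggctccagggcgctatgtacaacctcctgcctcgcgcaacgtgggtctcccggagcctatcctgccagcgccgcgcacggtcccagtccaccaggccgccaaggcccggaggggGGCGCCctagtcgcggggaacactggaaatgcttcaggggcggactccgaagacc
MAP3K5 proximal start: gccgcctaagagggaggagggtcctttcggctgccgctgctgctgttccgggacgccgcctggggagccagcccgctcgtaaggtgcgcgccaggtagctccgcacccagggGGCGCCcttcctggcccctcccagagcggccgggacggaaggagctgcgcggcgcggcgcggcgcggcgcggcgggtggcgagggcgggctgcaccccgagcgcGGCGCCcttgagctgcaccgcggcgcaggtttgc
GGCGCC occurred 1 time in the distal and 2 times in the proximal window. It is a palindrome, so 1 search covers both strands, and 16.4% of all 35116 windows of this length in the table held it. GC content was 64.0% and 77.6% in the MAP3K5 windows against a median of 58.0% over all windows. Of the 10 genes, 9 had an entry in the table. The motif also stood in windows of MAP2K4, GADD45B and GADD45G. The palindrome GTCTAGAC, another SMAD element, was in 0.182% of all windows and in 0 of the 12 windows of the set. Such matches describe the letters only.

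The MAP3K5 ratio was higher at 3 h than at 1 h in all 5 lines, and its mean was still high at 24 h, with a size that differed widely between lines. The probe lies at chr6:136920042-136920101 (hg18, minus strand, the build of the files) and was well above background in both channels on all 30 arrays. In HCC1419 the log2 ratio of BMP4 over vehicle was 0.10, 0.17, 1.34, 1.44, 1.30 and 1.11 over the 6 times, from the shortest to the longest. In MDA-MB-361 it was -0.06, 0.22, 1.79, 1.61, 1.33 and 1.45 at the same times. In ZR-75-30 it was 0.36, -0.30, 1.00, 1.04, 1.14 and 1.26. In these lines every array from 3 h on lay above both earlier arrays.

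The other two lines gave less. In SK-BR-3 the log2 ratio was 0.66, 0.05, 0.85, 0.99, 1.05 and 0.25, so the 24 h array fell below the 30 min array. In HCC1954 it was 0.14, 0.24, 0.42, 0.58, 0.21 and 0.71, and the 12 h array lay within the early values. Over all lines, 18 of 20 arrays from 3 h on exceeded the higher of the 2 early arrays of the same line.

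The mean log2 ratio over the lines was 0.24 ± 0.28 (SD, n = 5) at 30 min and 0.07 ± 0.22 at 1 h. Over the late times it was 1.08 ± 0.52 at 3 h, then 1.13 ± 0.40 and 1.01 ± 0.46, and 0.96 ± 0.48 at 24 h. The step from 1 h to 3 h was 1.00 ± 0.54 on the log2 scale and was above 0 in every line, from 0.18 in HCC1954 to 1.58 in MDA-MB-361. The 24 h ratio was lower than the 3 h ratio by an amount smaller than the spread between lines (-0.12 ± 0.39).

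**Figure D1:**
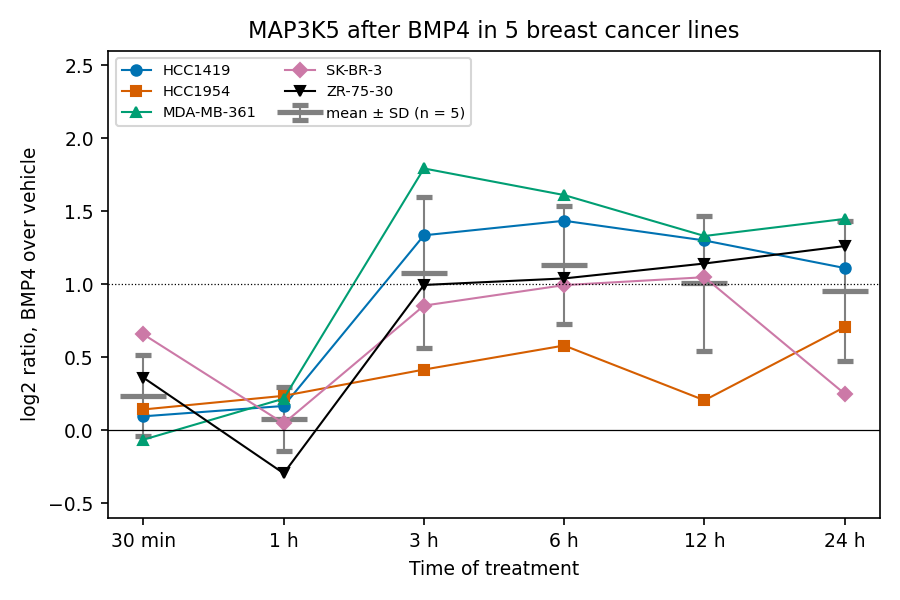
Log2 ratio of MAP3K5 (y axis, BMP4 over vehicle) at 6 times of treatment (x axis) in each line, with grey bars for the mean and SD over 5 lines; the dotted line marks a log2 ratio of 1. All 5 lines were higher at 3 h than at 1 h, with MDA-MB-361 highest at 1.79 and HCC1954 lowest at 0.42.

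The late change was defined as the mean log2 ratio from 3 h to 24 h minus that at 30 min. For MAP3K5 it was 0.81 ± 0.61 (SD over 5 lines), a fold of 1.75. By line it was 1.61 in MDA-MB-361, 1.20 in HCC1419, 0.75 in ZR-75-30, 0.33 in HCC1954 and 0.13 in SK-BR-3. The small value in SK-BR-3 rests on its 30 min ratio of 0.66, since its mean from 3 h on was 0.79. Ratios of at least 2-fold were found on 12 of the 30 arrays, 4 each in HCC1419 and MDA-MB-361, 3 in ZR-75-30, 1 in SK-BR-3 and 0 in HCC1954, and on 15 arrays in the authors' own normalized log2 ratios. Over the whole array, 7.8% of probes reached 2-fold on at least 1 array, a lower bar than 12 arrays. The share of probes that reached 2-fold on as many arrays as MAP3K5 was not computed.

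Slides and scan days did not follow the lines evenly. In HCC1419 and MDA-MB-361 all arrays were scanned on 1 day per line, and the late changes of 1.20 and 1.61 lie within it. In MDA-MB-361 the early arrays were on another slide than the late ones, so slide and time cannot be told apart there. Within a single slide, MAP3K5 at 3 h and 6 h exceeded 30 min by 1.29 in HCC1419, and at 3 h and 12 h by 0.71 in ZR-75-30. Within its 1 scan day that held both early and late arrays, HCC1954 gave 0.06 (12 h against 30 min). In SK-BR-3 the early and the late arrays were scanned on different days, so day and time cannot be told apart there.

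The separate channels show which side of the ratio moved. In HCC1419 the vehicle level of MAP3K5 stayed between 10.73 and 10.84 (log2 normalized signal), while the BMP4 channel had a mean of 10.91 at 30 min and 1 h and of 12.08 from 3 h on. In MDA-MB-361 the vehicle level ranged from 10.18 to 10.34 and the BMP4 channel had means of 10.27 early and 11.84 late. In ZR-75-30 the BMP4 mean was higher late by 0.74 and the vehicle mean was lower by 0.34 (a late minus early difference of -0.34). These ZR-75-30 means pool arrays of different slides and scan days. On the slide that held its 30 min, 3 h and 12 h arrays, the BMP4 level was 11.507, 11.745 and 12.005. The vehicle level there was 11.147, 10.75 and 10.862, so both channels moved.

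HCC1954 and SK-BR-3 differed from this. The vehicle mean was 12.03 early and 10.63 late in HCC1954, and 9.87 early and 8.99 late in SK-BR-3. The late minus early difference of the BMP4 channel was also below 0, at -1.11 and -0.44, and smaller in size than that of the vehicle channel (-1.40 and -0.87). In both lines, as in MDA-MB-361, the early arrays were on other slides than the late ones. The part of slide and scan day in these levels was not tested.

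**Figure D2:**
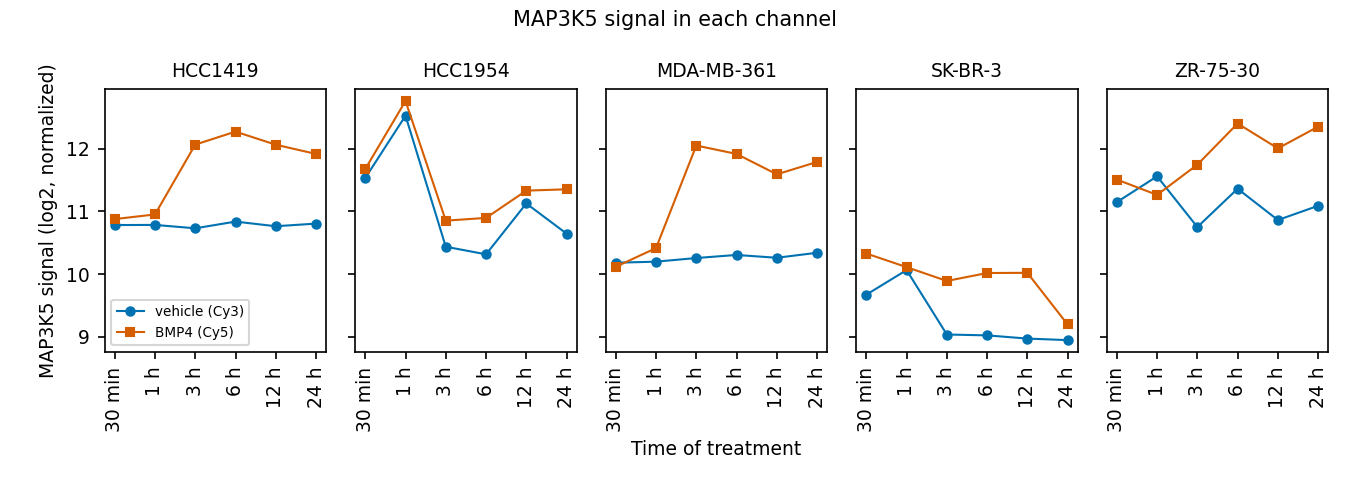
Normalized log2 signal of MAP3K5 (y axis) in the vehicle and the BMP4 channel at 6 times (x axis), 1 panel per line and 1 array per point. The vehicle line is flat in HCC1419 and MDA-MB-361 while the BMP4 line is higher on the late arrays by 1.17 and 1.57; in HCC1954 and SK-BR-3 both channels are lower late.

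Of the 16 probes of the other 9 genes, 0 passed the test of the late change (limma, Benjamini-Hochberg adjusted p under 0.05) in either direction, and 0 had an unadjusted p under 0.05. Over the whole array 0.0927% of probes passed, all of them higher, and 4.99% had an unadjusted p under 0.05. The estimates of the 16 probes ran from -0.11 to 0.17 with a median of 0.01, against a median of 0.01 over all probes. The test over all 6 times (moderated F) called 0 of the 16, and 0.0902% of the array, with 0 of the 16 at an unadjusted p under 0.05 against 4.2% of the array.

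**Figure D3:**
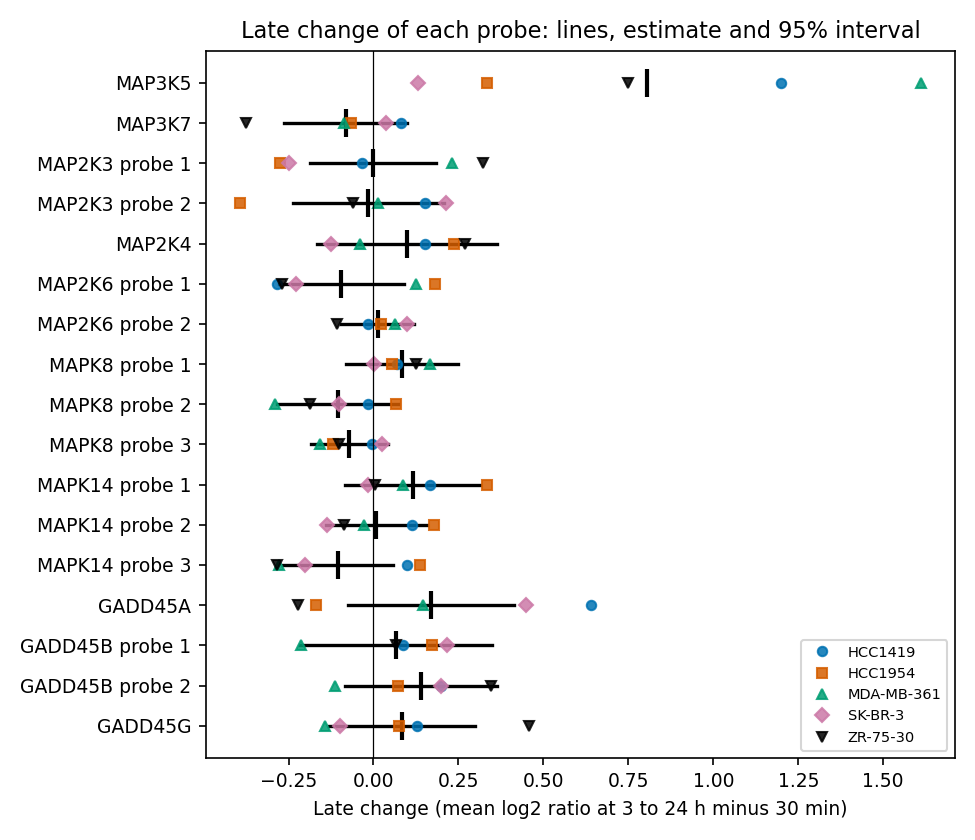
Late change of each of the 17 probes (x axis, log2 difference of ratios) with 1 coloured point per line and a vertical tick for the estimate; horizontal bars are 95% intervals of the fit, drawn for the 16 probes that were tested. MAP3K5 lies at 0.81, and the intervals of all others include 0.

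Among the MAP3Ks, MAP3K7 had a late change of -0.08 ± 0.09 (SE; 95% interval -0.26 to 0.10). Its mean log2 ratio ranged from -0.15 at 1 h to 0.05 at 30 min, and its SD of 0.32 at 1 h came with values between -0.59 in ZR-75-30 and 0.25 in HCC1954. No time point passed the test for MAP3K7, and the lines lay on both sides of 0.

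Among the MAP2Ks, the late change was -0.0012 and -0.015 for the 2 MAP2K3 probes, 0.10 ± 0.13 (SE) for MAP2K4 and -0.09 and 0.01 for the 2 MAP2K6 probes. MAP2K4 was uneven between lines. In ZR-75-30 its log2 ratio was 0.37, -0.01, 0.16, 0.51, 0.89 and 1.00 over the 6 times, in SK-BR-3 0.51, 0.01, 0.20, 0.49, 0.81 and 0.03, and in MDA-MB-361 -0.26, -0.05, -0.29, -0.28, -0.48 and -0.14. All 6 MDA-MB-361 arrays lay below 0 and all 6 HCC1419 arrays above 0.

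Among the MAPKs, the late change of the 3 MAPK8 probes was 0.08, -0.11 and -0.07, and that of the 3 MAPK14 probes 0.11, 0.01 and -0.11. The MAPK8 probe printed in 10 copies (probe 1) had a late change above 0 in 5 of 5 lines, with sizes from 0.00028 to 0.17, against 3.97% of all probes with that pattern. Its adjusted p was 0.972. The other MAPK8 probes were dim, with probe 3 well above background on 18 arrays in the vehicle channel. The copies of the 10-spot MAPK8 and MAPK14 probes had a median SD of 0.083 within an array.

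MAPK14, the p38α kinase, was lower at 1 h on 1 of its 3 probes. Probe 2 (from chr6:36149831 to chr6:36151641, hg18, plus strand), which matches the annotated transcript variant 3, had log2 ratios at 1 h of -0.65 in ZR-75-30, -0.33 in HCC1419, -0.24 in SK-BR-3, -0.20 in MDA-MB-361 and -0.16 in HCC1954. All 5 lay below 0, with a mean of -0.31 ± 0.20 (SD, n = 5) and an adjusted p of 0.0481 against 0, where 0.973% of all probes passed at 1 h. This was the only one of the 96 combinations of 16 probes and 6 times that passed. The share of all probes that passed against 0 was 0.0805% at 30 min and 0.349% at 3 h. It was 0.176%, 0.463% and 1.58% at the last 3 times. The MAPK14 call was lost when any 1 line was left out and with 1 scaling factor per array, and in the deposited log ratios and the authors' matrix. Probe 3, to the same transcript, had -0.27 at 1 h with all 5 lines below 0 (adjusted p = 0.141), and probe 1, printed in 10 copies and matching another transcript, -0.09 with 2 lines above 0.

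With the cell line as a replicate block, 4 combinations passed. MAPK14 probe 2 at 1 h had an adjusted p of 0.0103 and probe 3 at 1 h of 0.0406, both below 0. GADD45B probe 1 at 1 h had 0.0334 and MAPK8 probe 1 at 24 h 0.0316, both above 0. The block takes out the mean offset of each line, and with it 2.53% of all probes passed at 1 h and 4.44% at 24 h.

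No GADD45 probe passed at any time in the fit with neither block nor scan day, but single lines had high ratios at 1 h. GADD45B probe 1 (chr19:2429178-2429237, hg18, plus strand) had log2 ratios at 1 h of 1.05 in HCC1419, 0.80 in ZR-75-30, 0.44 in MDA-MB-361. SK-BR-3 had 0.15 and HCC1954 -0.01. At 3 h the lines in this order gave -0.0012, 0.03, -0.21, 0.31 and 0.32. The mean at 1 h was 0.49 ± 0.44 (SD, n = 5; adjusted p = 0.110 without the block), which does not pass. With scan day as a term it passed, with a mean of 0.59 (adjusted p = 0.00658), where 1.39% of all probes passed at 1 h.

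The second GADD45B probe gave 0.40 in HCC1419, 0.96 in ZR-75-30, 0.45 in MDA-MB-361 at 1 h (mean over 5 lines 0.25, adjusted p = 0.297). SK-BR-3 had -0.10 and HCC1954 -0.44. Both probes thus placed HCC1419, MDA-MB-361 and ZR-75-30 above the other two lines. GADD45B probe 1 reached 2-fold on 2 arrays, HCC1419 at 1 h and ZR-75-30 at 12 h.

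GADD45G was high on 1 array at 1 h. It had 0.88 in ZR-75-30, and the other lines ranged from -0.22 to 0.10. There the vehicle level was 9.83 at 30 min and 8.76 at 1 h, while the BMP4 channel had 9.58 and 9.64. The 6 h and 24 h arrays of ZR-75-30, scanned on the same day as the 1 h array, had vehicle levels of 8.72 and 9.32. No other array was on the slide of this 1 h array, which also gave the ZR-75-30 values of GADD45B and MAPK14 at 1 h. The part of the slide was not tested. The GADD45G ratio in ZR-75-30 was -0.10 at 3 h and 0.48 at 12 h, and in SK-BR-3 it was -0.52 at 12 h. Its late change was 0.08 ± 0.10 (SE; adjusted p = 0.981).

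GADD45A, a p53-inducible growth arrest gene (probe at chr1:67925959-67926018, hg18, plus strand), was uneven between lines. In HCC1419 its log2 ratio was -0.09, -0.19, 0.45, 0.71, 0.54 and 0.49, so all arrays from 3 h on were above both early ones. In MDA-MB-361 it was 0.09, -0.06, -0.17, 0.24, 0.28 and 0.58. In HCC1954 the values from 3 h on were -0.07, -0.19, -0.21 and -0.25, all below both early ones. The late change over the lines was 0.17 ± 0.12 (SE; 95% interval -0.08 to 0.41; adjusted p = 0.969).

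**Figure D4:**
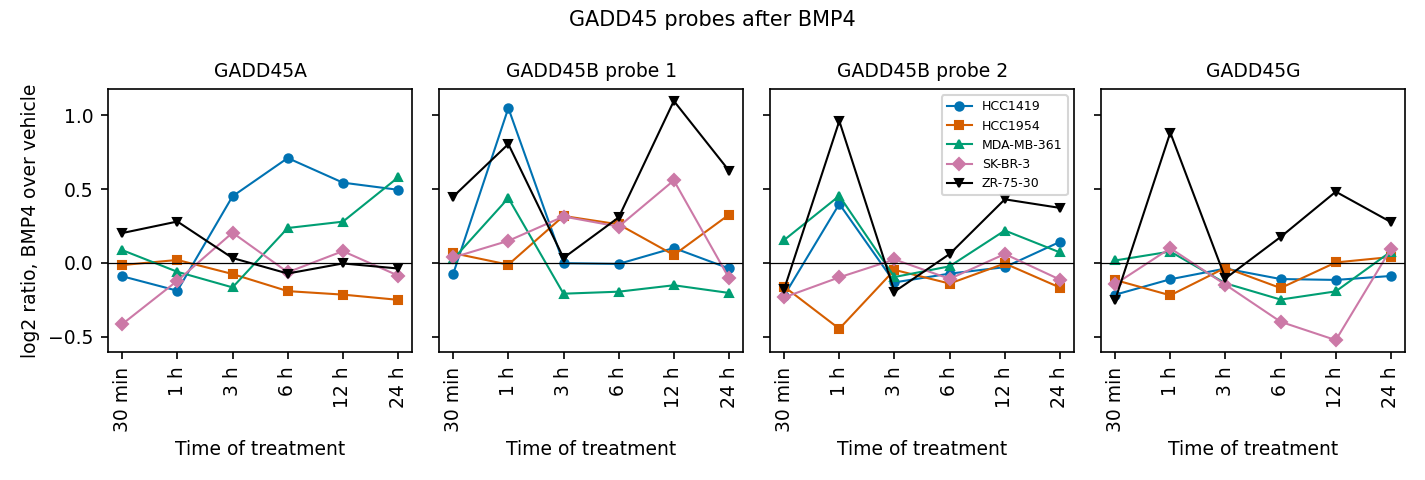
Log2 ratio (y axis, BMP4 over vehicle) of the 4 GADD45 probes at 6 times (x axis), 1 line of points per cell line. At 1 h GADD45B is above 0 on both probes in HCC1419, MDA-MB-361 and ZR-75-30, GADD45G reaches 0.88 in ZR-75-30, and GADD45A is above 0.4 from 3 h on in HCC1419.

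The ratio averaged over time differed between lines for 5 of the 16 probes, while 22.2% of the whole array passed the same test. These were MAP2K3 probe 2, MAP2K4 and all 3 MAPK14 probes. MAP2K3 probe 2 averaged 0.18 in MDA-MB-361 and -0.39 to -0.27 in the other lines (adjusted p = 0.0114). MAP2K3 probe 1 did not show this, with -0.36 in MDA-MB-361 (adjusted p = 0.0973). MAP2K4 averaged -0.25 in MDA-MB-361 and 0.20 to 0.48 elsewhere (adjusted p = 0.0113). MAPK14 probe 1 averaged -0.19 in MDA-MB-361 and 0.10 to 0.22 elsewhere (adjusted p = 0.0355), whereas probes 2 and 3 were lowest in ZR-75-30, at -0.30 each (adjusted p = 0.0477 and 0.0375).

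These calls were lost in 2 alternatives, with ranges between lines that moved in different ways. Without MDA-MB-361 0 of the 16 passed, and far fewer probes of the whole array passed as well. The range of MAP2K3 probe 2 was then 0.12 in place of 0.57, while those of MAPK14 probes 2 and 3 stayed at 0.33 and 0.31 (adjusted p = 0.170 and 0.148). With 1 scaling factor per array 0 of the 16 passed, where 5 probes of the whole array did in place of 9092. The range was nevertheless larger, 0.79, for MAP2K3 probe 2 (adjusted p = 0.210) and 0.45 for MAPK14 probe 2 (adjusted p = 0.468). All MDA-MB-361 arrays were scanned on 1 day that no other line shared, so line and day cannot be told apart. HCC1419 and SK-BR-3 also shared no scan day with another line. Each slide held arrays of a single line, so line and slide cannot be told apart for any of these differences. The late change itself differed between lines for 0 of the 16 probes (0.00976% of the array), with 1 of the 16 at an unadjusted p under 0.05, against 5.76% of the array. With MDA-MB-361 left out, GADD45A alone of the 16 passed this test, with a range of 0.95 between lines (adjusted p = 0.0260), where 0.00488% of the array did.

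Around the core, 54 further genes of the branch were read with 89 probes: other MAP3Ks, MAP2Ks and MAPKs, partners of MAP3K7, regulators of MAP3K5, scaffolds, targets and phosphatases. The late change passed for 0 of the 89 in either direction, with 3 higher and 1 lower at an unadjusted p under 0.05, which is 4.49% of the list and near the 4.99% of the array. The median was 0.03, against 0.01 over all probes, and 56 of 89 estimates (62.9%) were above 0, against 53.3% of the array. Against 0, 2 of the 89 probes passed at some time, GLRX and JUND, where 2.52% of all probes did. The ratio averaged over time differed between lines for 26 of the 89, where 22.2% of the array passed.

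GLRX, glutaredoxin, a redox protein that binds MAP3K5, had the smallest p for the late change in the list. Its mean log2 ratio over the 6 times was 0.05, 0.16, 0.23, 0.48, 0.48 and, at 24 h, 0.57 ± 0.32 (SD, n = 5), with adjusted p of 0.0199, 0.0123 and 0.00128 at the last 3 times. The late change was 0.39 ± 0.10 (SE), above 0 in 5 of 5 lines (0.16 to 0.65), and its adjusted p was 0.287. TXNIP, the thioredoxin-interacting protein, had 0.24 ± 0.06 (SE; 5 of 5 lines; adjusted p = 0.387). When 12 h and 24 h were set against 30 min and 1 h, both passed, GLRX with 0.42 (adjusted p = 0.0325) and TXNIP with 0.27 (adjusted p = 0.0350), where 0.337% of the array passed in place of 0.0927%.

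The late change of other probes of the branch, taken in the order of their p, did not pass. The scaffold SPAG9 had -0.50 on 1 probe, with -1.09 in ZR-75-30 as the lowest line and 0.15 in MDA-MB-361 as the highest, but its other 4 probes had 0.03 to 0.11. DAB2IP, a MAP3K5-activating protein, had 0.19 on 1 probe and 0.04 on the other, the thioredoxin gene TXN 0.17 and 0.10, and the JNK kinase MAPK9 0.15. The transcription factor ATF2 had -0.15 on 1 probe and -0.06 and -0.07 on the others. The phosphatase DUSP8 had 0.19 and 0.17 on 2 probes and 0.04 on the third. The phosphatase DUSP16 had -0.21 on 1 probe and -0.07 to 0.02 on its other 3. MAP3K3 had -0.16 and -0.07, and the endoplasmic reticulum stress sensor ERN1 had 0.07, 0.04 and -0.02.

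JUND, a transcription factor and JNK target that was singled out after its values were seen, passed above 0 at all 6 times. Its mean log2 ratio was 0.48 at 30 min and 0.50 at 24 h, with a late change of -0.04. An offset of this kind is already there at 30 min, and a dye bias of the probe cannot be told apart from it on arrays without a dye swap.

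The probes whose ratios ran most like those of MAP3K5 over the 30 arrays were outside the branch. Pearson's r was 0.89 for CDC42EP3, an effector of the small GTPase CDC42, 0.86 for ST3GAL5, the GM3 ganglioside synthase, and 0.80 for IGFBP3, which binds insulin-like growth factors. It was 0.78 for GPR30 (now GPER1), a membrane oestrogen receptor, and 0.78 for C18orf1 (now LDLRAD4), an inhibitor of TGF-β signalling. The 30 arrays share 5 lines and 12 slides, and 0.789% of the other probes above background had an r over 0.5. With each line's mean removed, r was 0.90, 0.86, 0.79, 0.80 and 0.82.

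The late change of these 5 was 0.48, 0.43, 0.73, 1.20 and 0.45. GPR30 differed in SK-BR-3, where its late change was 1.44 beside 0.13 for MAP3K5. IGFBP3 had 0.14 in HCC1954 and -0.0034 in SK-BR-3, and C18orf1 had -0.019 and -0.00059 there. CDC42EP3, ST3GAL5 and GPR30 were above 0 in every line. The array held 2 probes for ST3GAL5, 2 for IGFBP3 and 3 for C18orf1, and the values are those of 1 probe each. Within the set, r with MAP3K5 ran from -0.28 for GADD45B probe 1 to 0.43 for GADD45A.

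In cells without BMP4, of the 17 probes, 16 passed the test of the vehicle level between lines, where 73.1% of the whole array did. The exception was the dim MAPK8 probe 3 (adjusted p = 0.207). Levels are log2 normalized Cy3 signals, with 6 arrays a line, and are compared between lines for 1 probe at a time. Each slide held arrays of a single line, and only HCC1954 and ZR-75-30 shared a scan day. Line and slide therefore cannot be told apart in any of these level differences, and their p-values do not separate them.

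MAP3K5 itself was lowest in SK-BR-3. Its vehicle level was 11.13 ± 0.30 (SD, n = 6) in ZR-75-30, 11.10 ± 0.83 in HCC1954, 10.78 ± 0.04 in HCC1419, 10.26 ± 0.06 in MDA-MB-361. SK-BR-3 had 9.29 ± 0.47 (adjusted p = 1.02e-07 between lines). The ranges of the first 3 overlapped in this order, while HCC1419 lay above MDA-MB-361 and MDA-MB-361 above SK-BR-3 on every array. The highest line exceeded the lowest 3.59-fold, and 75.2% of probes above background had a smaller range. The order of the vehicle levels was not the order of the late changes: MDA-MB-361, with the largest late change, was the fourth in level.

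MAP2K6, an activator of p38, was highest in MDA-MB-361. Probe 1 (chr17:65049557-65049616, hg18, plus strand) had a vehicle level of 11.58 ± 0.16 there, 8.63 in SK-BR-3, 7.87 in HCC1419, 7.14 in HCC1954 and 6.83 in ZR-75-30. MDA-MB-361 stood 7.71-fold above the next line with no overlap (adjusted p = 7.96e-18), and ZR-75-30 was well above background on 2 of 6 arrays. Probe 2 was above background on all 6 MDA-MB-361 arrays and on 0 of the others, and there MDA-MB-361 was at least 1.44-fold higher than ZR-75-30. The highest line exceeded the lowest, ZR-75-30, 26.9-fold on probe 1, a fold that rests on those dim arrays.

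GADD45A and GADD45G set HCC1954 apart in opposite directions. GADD45A had 14.73 ± 0.43 in HCC1954 and 11.55, 11.13, 10.98 and 10.41 in SK-BR-3, HCC1419, MDA-MB-361 and ZR-75-30, which put HCC1954 9.05-fold above the next line on arrays that did not overlap (adjusted p = 7.06e-20). GADD45G had 7.45 ± 0.13 in HCC1954, 9.28 to 9.46 in ZR-75-30, MDA-MB-361 and SK-BR-3 and 10.54 in HCC1419 (adjusted p = 1.48e-09). HCC1954 was thus 3.57-fold below ZR-75-30, the next line up, and HCC1419 2.12-fold above SK-BR-3, the next line down, both without overlap. GADD45B differed less, from 13.13 in HCC1419 to 11.64 in MDA-MB-361 on probe 1, and the ranges of all neighbours overlapped on both probes.

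The remaining kinases differed between lines by 1.58-fold to 3.48-fold where they passed. MAP3K7 was lowest in SK-BR-3 (9.98), 1.75-fold below the next line with no overlap, and highest in MDA-MB-361 (11.31). MAPK8 probe 1 was 2.36-fold higher in MDA-MB-361 than in the next line without overlap, but its dim probes 2 and 3 were highest in SK-BR-3 and HCC1954. MAP2K4 and MAPK14 probes 1 and 2 were highest in MDA-MB-361, and both MAP2K3 probes were highest in HCC1954 and lowest in MDA-MB-361, with overlap between neighbours in each case.

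**Figure D5:**
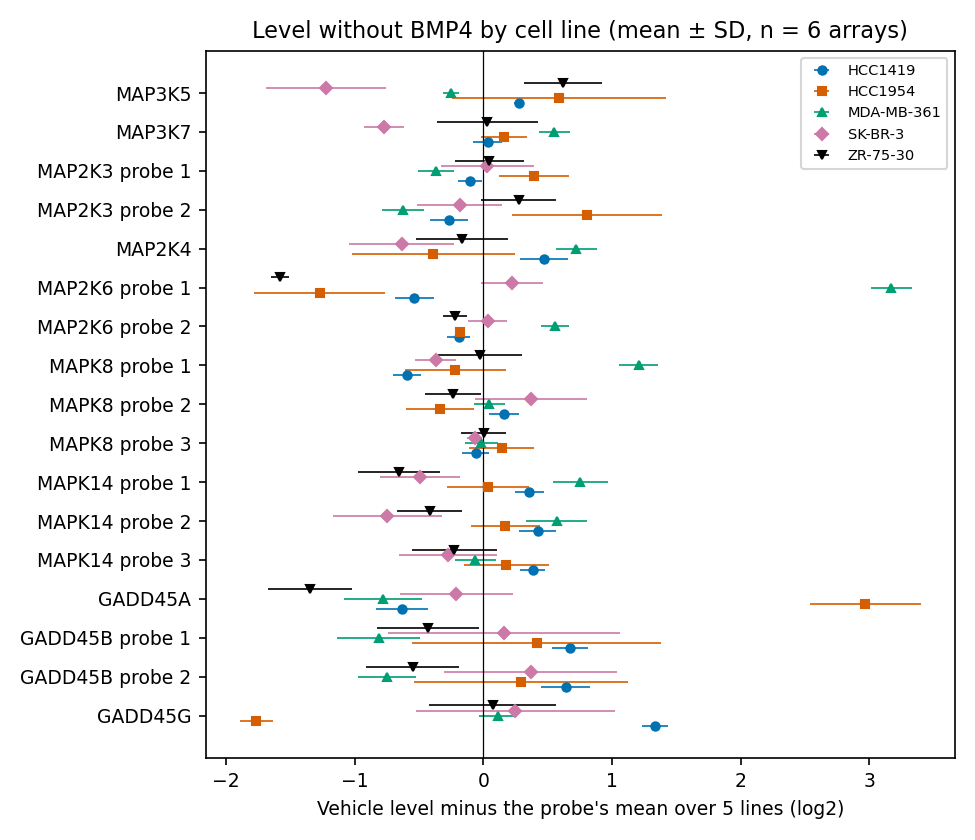
Vehicle level of each probe in each line, as the difference (x axis, log2) from the mean of that probe over the 5 lines; points are means and bars SD over 6 arrays. MAP2K6 probe 1 stands out in MDA-MB-361, GADD45A (high) and GADD45G (low) in HCC1954, and MAP3K5 is lowest in SK-BR-3.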

How the data were processed

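The 30 two-colour Agilent whole human genome arrays were scanned by the authors and read with Agilent Feature Extraction, version 9.5.1.1 (build hg18) per the file headers. The deposited mean signals and local background medians are intensity values without normalization. Its log10 ratios of Cy5 over Cy3, also deposited, follow the software's background subtraction and dye normalization, and the authors' series matrix holds log2 ratios with a median of 0 per array. The software's flags, deposited beside them, mark outliers and spots well above background.

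From these, intensities were corrected with normexp (offset 50), Cy5 over Cy3 was normalized by loess within each array without the 1639 control spots (limma 3.58.1, R 4.3.3), spots marked as outliers were set to missing, and spots were averaged to 41000 probes. Vehicle levels are Cy3 signals after a further Aquantile step. Linear models were fitted to all probes, with times as groups, and p-values were adjusted by Benjamini-Hochberg over all probes at a threshold of 0.05. Late change and time were fitted with the cell line as a block, the mean against 0 without it, and lines were compared with time as a term. The late change was compared between lines with a separate early and late mean for each line. The pairing is the cell line itself; deviations from the time means correlated with a mean r of 0.23 within and -0.09 between lines. No depth applies to arrays, and their number limits the precision.

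All probes of the 10 genes were named, of the pathway list the first 12 called in any test in the order of p for the late change, and the 5 probes with gene symbols most correlated with MAP3K5. Members and lists were chosen with earlier results of these data known. Alternatives were the software's log ratio, 1 factor per array, the series matrix, no dim probes (well above background on more than 15 arrays kept), flagged spots kept, array weights, scan day, slide, the block, another baseline, and leaving out each line. GADD45A was the only gene with no promoter in the table. One marker of another cell type is not reported here.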

Additional observations from a re-analysis of the deposited data

Results flagged for a closer look

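Of 119 groups of 5 lines examined (the 6 times and the late change of each probe), 9 had 1 line far from the other 4. A chance rate of about 1 in 20 would need independent groups. These groups share arrays and lines, so the count is not compared with that rate. The count includes the MAP3K5 ratios, by which this gene was chosen, so it is a description and not a test. MAP3K5 at 12 h was 0.21 in HCC1954, with the next line at 1.05. GADD45G at 1 h was 0.88 in ZR-75-30, with the next at 0.10. GADD45B probe 1 at 30 min was 0.45 in ZR-75-30 and probe 2 at 30 min 0.16 in MDA-MB-361, where no other line was above 0.07 and -0.16. MAPK14 probe 1 at 6 h was -0.20 in MDA-MB-361, with the next line at 0.19. MAP2K6 probe 2 at 12 h was 0.43 in MDA-MB-361, the line in which this probe was above background. The dim MAPK8 probes gave 0.0708 in HCC1419 (probe 2 at 3 h), -0.22 in HCC1954 (probe 3 at 3 h) and -0.32 in ZR-75-30 (probe 3 at 12 h).

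The ratio differed between cell lines by the moderated F test for MAP2K3 probe 2 (adjusted p = 0.0114), MAP2K4 (0.0113) and MAPK14 probes 1 (0.0355), 2 (0.0477) and 3 (0.0375). The part of scan day and of the loess curve in these was not tested beyond the alternatives given.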

How the results depend on the processing

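The late change and the change over time called 0 of the 16 probes under every alternative run. MAP3K5, which was chosen for its late ratios, had a late change between 0.60 and 1.02 under the alternatives. This is a description and not a test. Its late change was above 0 in all 5 lines, so leaving out a line could not reverse it. The 16 other probes gave 239 estimates under the alternatives, of which 23 had the opposite sign and 0 were called. Of the combinations called against 0 (1), 0 remained with 1 factor per array, 2 were called with array weights, 2 with scan day as a term (GADD45B probe 1 at 1 h beside MAPK14 probe 2) and 4 with the replicate block, and leaving out 1 line gave 0 each time. The combination of MAPK14 probe 2 at 1 h was called neither with array weights nor in the software's log ratio and the series matrix, which called MAPK8 probe 3 at 24 h (-0.55 and -0.57). The block changed no call of the late change or of the change over time. The 5 line differences in ratio became 0 with 1 factor per array, 3 in the series matrix and 8 with array weights, and 0 to 6 when 1 line was left out (0 without MDA-MB-361, 3 without ZR-75-30). Over all probes this test called 9092, 5 with 1 factor per array, 15201 with array weights and 96 without MDA-MB-361. The test against 0 called 1484 combinations over all probes, 157 with 1 factor per array and 5289 with array weights. Line differences in the late change, there against the mean of 30 min and 1 h, numbered 0 to 1 with a line left out (1 without MDA-MB-361). Vehicle levels called 15 to 17 of 17 probes. With slide as a random block, an alternative added after the data were seen, MAPK14 probe 3 no longer passed (adjusted p = 0.0524), nor did it without HCC1419 (adjusted p = 0.115). For the whole array the late change called 3 (no replicate block) to 138 probes (the other baseline) against 38, and the change over time 0 to 65 against 37. Scan day could not be fitted for line differences. The cause of these changes was not tested. Signal over background limits MAP2K6 probe 2 and MAPK8 probes 2 and 3.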
